A study of Homo sapiens with 24 samples.

Results

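The cyclins and kinases that drive human cells from G1 into S phase were followed in ovarian cancer cells under a nucleoside drug. The set is a list of 8 gene names, with no threshold on a measured value in its rule: the D-type cyclins CCND1, CCND2 and CCND3 with their kinases CDK4 and CDK6, and the E-type cyclins CCNE1 and CCNE2 with their kinase CDK2. They are 8 of the 63299 genes in the count table, and 8 of 8 passed the filter on low counts that left 20240 genes to be tested. The study used A2780, a platinum-sensitive ovarian cancer line, and the isogenic platinum-resistant A2780cis, which received cisplatin for a passage at regular intervals to keep its resistance. Cells of each line were grown with 1 µM 5-FdU-ECyd, a duplex drug that joins 5-fluorodeoxyuridine to ethynylcytidine, or in standard medium without drug, for 6 h or 12 h, with 3 libraries in each of the 8 groups. Both lines are single cell lines, they were seeded at different cell numbers, and the study calls the triplicates biological ones, while the sample descriptions do not state separate cultures, so the p-values measure the spread between these libraries, which may in part be technical.

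D-type cyclins are made in response to growth signals and bind CDK4 or CDK6. These kinases phosphorylate the retinoblastoma protein, which then releases E2F transcription factors, and E2F factors in turn activate the genes of the E-type cyclins. Cyclin E bound to CDK2 completes the phosphorylation of the retinoblastoma protein and starts DNA replication. In ovarian cancer the amplification of CCNE1 is a known event, and drugs against CDK4 and CDK6 act on the first of these steps.

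In the GRCh38 gene models of GENCODE release 44, CCND1 lies on chromosome 11 from 69641156 to 69654474 and CCND2 on chromosome 12 from 4269771 to 4305353, both on the plus strand. CCND3 lies on chromosome 6 from 41934934 to 42050357 on the minus strand. CDK4 lies on chromosome 12 from 57747727 to 57756013 and CDK6 on chromosome 7 from 92604921 to 92836573, both on the minus strand. CCNE1 lies on chromosome 19 from 29811991 to 29824312 on the plus strand, CCNE2 on chromosome 8 from 94879770 to 94896678 on the minus strand, and CDK2 on chromosome 12 from 55966781 to 55972789 on the plus strand. All values are sums over the exons of a gene, untranslated regions included, so isoforms of a gene were not told apart.

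Levels are given as CPM, a library's counts divided by its total and scaled to a common size, after TMM normalization, which corrects for library depth and composition, with the mean ± SD of 3 libraries where groups are summarised. Library totals ranged from 11077368 to 21901406 counts. Of the genes taken as markers of Muellerian and ovarian epithelium, PAX8, WT1, MUC16 and CDH1 had at most 2 counts in any library. KRT19 had at most 6, so these markers did not show the labelled tissue. EPCAM was at most 1.96 CPM. KRT8 stood at 0.538 to 1.75 CPM in A2780 and 3.82 to 6.82 CPM in A2780cis. KRT18 stood at 0.718 to 3.27 CPM in A2780 and 20.6 to 28.4 CPM in A2780cis. The mesenchymal genes were unlike in level. VIM was between 788 and 2770 CPM, whereas FN1 was at most 3.59 CPM. CDH2 was at 13.4 to 55.6 CPM in A2780 and 1.21 to 7.42 CPM in A2780cis. The leukocyte genes PTPRC and CD3E and the endothelial genes PECAM1, CDH5 and VWF had at most 1 count in any library. Of the fibroblast genes, COL1A1 reached 16 CPM in A2780 and 2.99 CPM in A2780cis, and DCN 12.3 and 1.47 CPM, and the part of these differences in the comparisons between the lines was not tested.

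The plot of levels by library gives every value of the 8 genes. Drug treatment moved the cyclins in opposite directions: CCND2 fell in both lines at both times, whereas CCNE2 and CDK2 rose in both lines at both times. CCNE1 and CCND3 passed as higher in A2780 at both times and did not pass in A2780cis at either. The call of CCNE1 at 12 h was lost with any single library left out. Its response at 12 h did not pass as different between the lines. Differences in these bulk samples may come from more or less RNA per cell or from another share of cells in a phase of the cycle, which cannot be told apart here. Each library started from the same amount of total RNA, and the paper describes ethynylcytidine as an inhibitor of RNA polymerase. Rises and falls are given relative to the other genes of a library. A change in all RNA per cell cannot be seen in these counts.

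**Figure D1:**
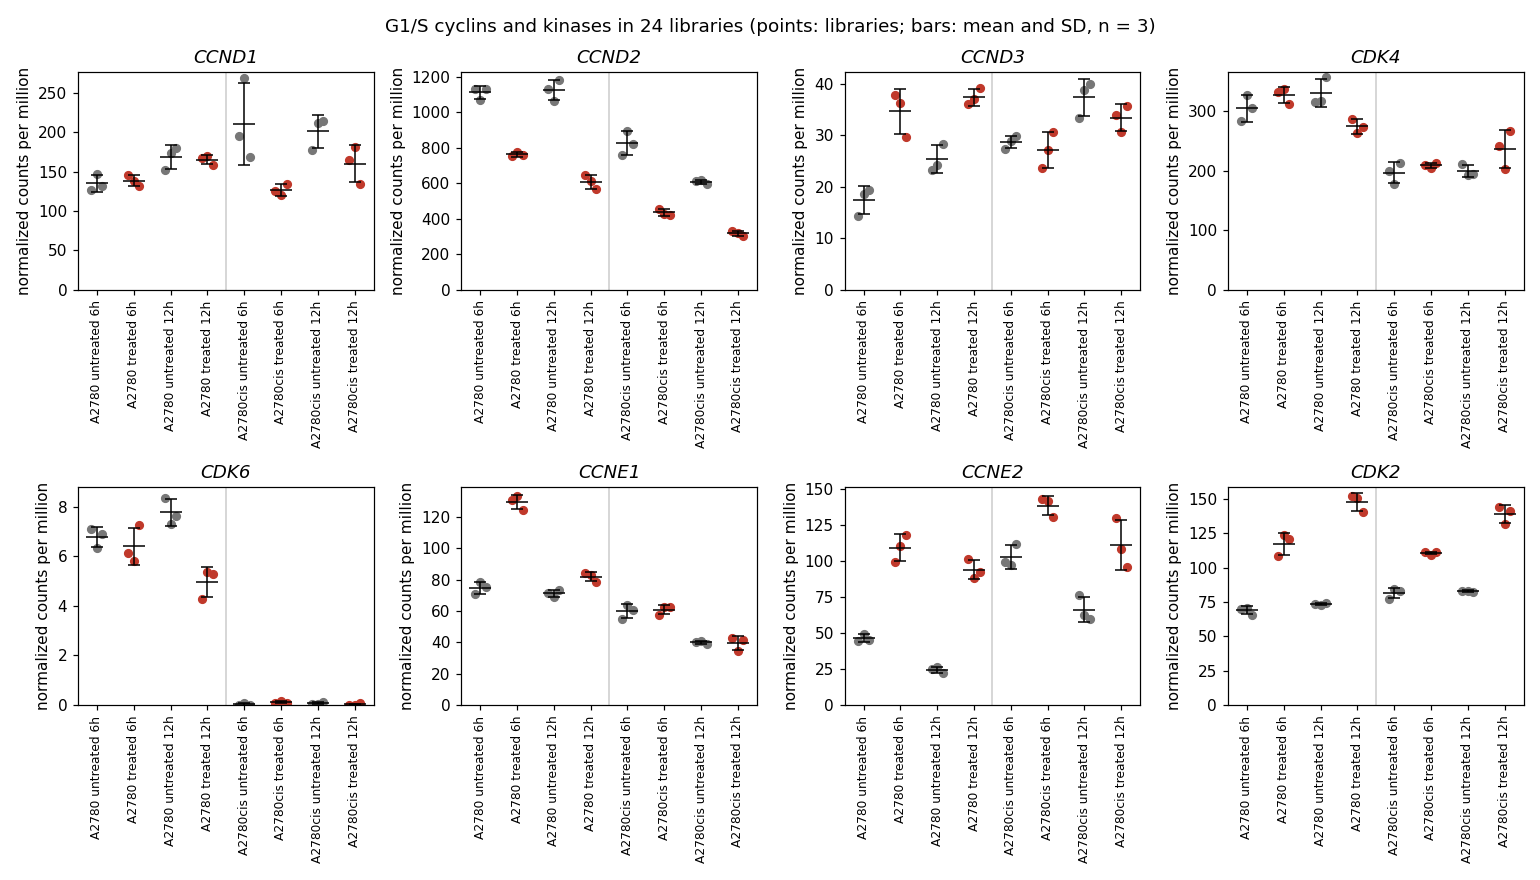
Normalized CPM (y axis, linear from 0, a scale of its own for each gene) of the 8 genes in the 8 groups of line, treatment and time (x axis), with untreated libraries in grey, treated libraries in red, and the mean and SD of 3 libraries as bars. CCND2 fell and CCNE2 and CDK2 rose in each of the 4 treated groups, with no overlap between treated and untreated libraries, and CDK6 was at most 0.146 CPM in every A2780cis library.

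Per base of exon, the transcripts of CCND2 and CDK4 were the most abundant of the 8 in each group. In RPKM, the CPM divided by the exon length in kilobases, CCND2 came first in the 4 untreated groups, with 139 ± 4.62 in A2780 and 103.5 ± 8.60 in A2780cis at 6 h, and 140.9 ± 7.31 and 76.2 ± 1.46 at 12 h. CDK4 came first in the 4 treated groups, with 106 ± 4.14 and 67.6 ± 1.61 RPKM at 6 h and 88.8 ± 3.98 and 76.7 ± 10.4 RPKM at 12 h. The libraries of CCND2 and CDK4 did not overlap in any group, so the exchange of the first place was larger than the spread. CDK4 shares 1369 exon bases with TSPAN31 and CCND2 shares 999 with ENSG00000285901. The part of shared reads in this order was not tested. CCND3 came seventh and CDK6 last in each group. CCND3 was between 3.03 ± 0.465 and 6.497 ± 0.624 RPKM. The middle of the order was close: CCNE1 and CCND1 overlapped in untreated A2780 at 6 h (30.4 ± 1.61 and 28.4 ± 2.29 RPKM), and CCNE1 and CCNE2 overlapped in untreated A2780cis at 6 h and at 12 h.

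CCND2, the cyclin D with the highest level in these cells, fell with treatment. In A2780 at 6 h it was at 1133, 1070 and 1133 CPM in the untreated and 752.02, 779.2 and 759.3 CPM in the treated libraries. At 12 h the values were 1130, 1066 and 1182 CPM untreated and 646, 611 and 566.5 CPM treated. All treated libraries lay below all untreated ones at both times, with a log2 fold change (log2 FC, treated over untreated) of -0.54 (SE 0.08, 95% interval -0.71 to -0.37, adjusted p = 2.00e-05) at 6 h and -0.89 (SE 0.08, interval -1.06 to -0.72, adjusted p = 1.48e-09) at 12 h, by the quasi-likelihood test of edgeR, two-sided, with p-values adjusted after Benjamini and Hochberg over all 20240 genes, as for every adjusted p of a gene given here. In A2780cis at 6 h the untreated libraries held 759.7, 897 and 823 CPM and the treated ones 457.5, 429 and 421 CPM. At 12 h they held 611.4, 618.2 and 595.5 CPM and 333, 319 and 305 CPM. CCND2 of A2780cis thus fell to about the same fraction at both times, with a log2 FC of -0.92 (SE 0.08, adjusted p = 5.98e-09) and -0.93 (SE 0.08, adjusted p = 4.71e-10).

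CCND1, the cyclin D most often amplified in human tumours, did not pass the test in A2780. It stood there at 126.5, 147.5 and 132 CPM untreated and 146, 137 and 132 CPM treated at 6 h, and at 152, 173 and 180.5 CPM untreated and 167, 169.6 and 158.5 CPM treated at 12 h. The groups overlapped at both times. The log2 FC was 0.03 (interval -0.23 to 0.30) at 6 h and -0.03 (interval -0.29 to 0.23) at 12 h, so changes of that size in either direction were within the error. In A2780cis CCND1 fell at 6 h, from 195, 269 and 169 CPM to 125, 119.9 and 135 CPM (log2 FC -0.74, SE 0.13, adjusted p = 0.000101). The untreated libraries were spread more widely than those of any other group, and without the highest of them the log2 FC was -0.52. At 12 h the values of A2780cis were 177, 211 and 214 CPM untreated and 165, 181 and 134.5 CPM treated, with overlap, and the fall of 0.33 on the log2 scale (adjusted p = 0.0296) was lost without untreated library 2 or 3 or treated library 3, with adjusted p-values from 0.0857 to 0.123. It was also lost with library size as the only correction (adjusted p = 0.198) and without lncRNA and rRNA genes (adjusted p = 0.0754).

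CCND3, the third D-type cyclin and the least abundant here, rose in A2780. At 6 h it was at 14.4, 18.5 and 19.5 CPM untreated and 37.9, 36.4 and 29.7 CPM treated (log2 FC 0.99, SE 0.13, adjusted p = 2.53e-06). At 12 h it was at 23.3, 24.3 and 28.4 CPM untreated and 36.0, 37.0 and 39.1 CPM treated (log2 FC 0.56, SE 0.12, adjusted p = 0.000355). The groups did not overlap at either time, and the smaller difference at 12 h went with a higher untreated level. In A2780cis the means were 28.7 ± 1.21 and 27.2 ± 3.52 CPM at 6 h and 37.4 ± 3.6 and 33.5 ± 2.60 CPM at 12 h, with overlap at both times. The intervals of its log2 FC there ran from -0.33 to 0.18 and from -0.41 to 0.09.

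CDK4 moved little. In A2780 it was at 283, 328 and 305 CPM untreated and 332, 338 and 313 CPM treated at 6 h (log2 FC 0.10, interval -0.09 to 0.30), and at 316, 318.5 and 358 CPM untreated and 288, 263 and 273 CPM treated at 12 h. The groups of 12 h did not overlap, and CDK4 fell there by 0.27 on the log2 scale (SE 0.09, adjusted p = 0.0183). In A2780cis it was at 199.7, 178.5 and 214 CPM untreated and 209, 204 and 214 CPM treated at 6 h (log2 FC 0.08), and at 212, 193.5 and 195 CPM untreated and 242, 203 and 267 CPM treated at 12 h, where the log2 FC was 0.25 (SE 0.09, adjusted p = 0.0271) although the groups overlapped. Neither call of 12 h held throughout. The fall in A2780 was lost without untreated library 3 or treated library 2 (adjusted p = 0.0926 and 0.0638), and the rise in A2780cis without untreated library 2 or 3 or treated library 1 or 3 (adjusted p from 0.0908 to 0.287), with no filter on low counts (adjusted p = 0.196) or with the compared groups alone (adjusted p = 0.115). Scaling by library size alone left a log2 FC of -0.05 for CDK4 in A2780 at 12 h (adjusted p = 0.617).

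CDK6, the second kinase of the D-type cyclins, was nearly absent from A2780cis. Its counts in the untreated A2780cis libraries were 0, 1 and 0 at 6 h and 1, 1 and 2 at 12 h, and in the treated ones 1, 2 and 1.5 at 6 h and 0, 0 and 1 at 12 h, at or under the floor of 3 counts per library below which no fold change was taken. In A2780 it had 99, 67 and 76 counts untreated and 72, 63 and 98 counts treated at 6 h, and 127, 126 and 149 counts untreated and 61, 110 and 109 counts treated at 12 h. Summed over all libraries after rounding to whole counts, A2780 held 1157 counts and A2780cis 11, a ratio of 110 after normalization (exact 95% interval 61.2 to 221, which covers counting error only, since reads without molecular identifiers are not independent molecules). With treatment in A2780, CDK6 was 6.79 ± 0.399 and 6.41 ± 0.751 CPM at 6 h (log2 FC -0.08, interval -0.43 to 0.27) and fell from 7.78 ± 0.554 to 4.98 ± 0.614 CPM at 12 h (log2 FC -0.63, SE 0.16, adjusted p = 0.00161), without overlap.

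Promoter sequences help to place these genes, since E2F factors, MYC and SP1 are known to act on cell cycle promoters through short words. The RefSeq windows used here, for assembly GRCh38.p14, covered 4 of the 8 genes, CCND3, CDK4, CDK6 and CCNE1. Both strands of the 250 bases before each of the 7 listed starts were searched for the E2F words TTTCCCGC, TTTCGCGC, TTTGCCGC and TTTGGCGC, for the E-box CACGTG of MYC-type factors and for the GC box GGGCGG of SP1-type factors, which occur in 2.79%, 6.34% and 42.6% of the 35116 windows of the table. The CDK4 window held 3 E-boxes, and 0.0797% of all windows held at least 3. The CCNE1 window held 7 GC boxes, the 3 CCND3 windows 5, 2 and 0, the CDK4 window 3 and the CDK6 windows 3 and 0, and 13.9% of all windows held at least 3. All 250 bases of the CCND3 window with 5 GC boxes lie in annotated exons of CCND3 itself. None of the 7 windows held an E2F word, which says only that these letters are not in these bases. The sequences are shown 5′ to 3′ on the gene's strand. They are those of the kinase abundant in both lines, the kinase with counts above the floor in A2780 alone, and CCNE1. The response of CCNE1 differed between the lines at 6 h, as did that of CCNE2, which had no window. E-boxes are in capitals for CDK4, and GC boxes on either strand are in capitals for the other 2 genes. For CDK4 the part that no annotated exon covers is shown, 113 of the 250 bases with 2 of the 3 E-boxes.
CDK4, chr12:57752448-57752560, minus strand: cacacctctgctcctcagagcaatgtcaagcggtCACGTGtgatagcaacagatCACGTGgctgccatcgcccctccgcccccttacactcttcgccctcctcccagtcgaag
CDK6, chr7:92836574-92836823, minus strand: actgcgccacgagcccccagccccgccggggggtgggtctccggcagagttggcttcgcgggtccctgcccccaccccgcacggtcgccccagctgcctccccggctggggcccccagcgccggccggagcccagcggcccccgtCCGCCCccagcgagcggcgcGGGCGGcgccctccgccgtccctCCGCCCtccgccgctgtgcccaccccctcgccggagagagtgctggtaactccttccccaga
CCNE1, chr19:29811741-29811990, plus strand: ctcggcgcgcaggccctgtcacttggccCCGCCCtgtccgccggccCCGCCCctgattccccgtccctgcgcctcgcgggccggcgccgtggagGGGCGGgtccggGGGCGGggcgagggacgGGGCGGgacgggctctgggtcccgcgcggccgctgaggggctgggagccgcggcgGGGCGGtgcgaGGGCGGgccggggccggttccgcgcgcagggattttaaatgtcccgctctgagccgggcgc

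CCNE1, the E-type cyclin that is amplified in part of ovarian cancers, rose in A2780 at both times. At 6 h it was at 70.6, 78.4 and 75.3 CPM untreated and 131, 133 and 124.6 CPM treated (log2 FC 0.79, SE 0.08, adjusted p = 9.68e-08). At 12 h it was at 71.4, 68.6 and 73.4 CPM untreated and 84.0, 82.9 and 78.3 CPM treated. The groups did not overlap at either time, but the log2 FC of 0.20 at 12 h (SE 0.08, adjusted p = 0.0422) lost its call without any 1 of the 6 libraries, with adjusted p-values from 0.0515 to 0.151. In A2780cis the means were 59.7 ± 4.52 and 60.8 ± 2.98 CPM at 6 h and 39.9 ± 1.07 and 39.5 ± 4.29 CPM at 12 h. The intervals of the log2 FC in A2780cis ran from -0.15 to 0.20 and from -0.19 to 0.16, so a rise of the size seen in A2780 at 6 h lay outside them.

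CCNE2, the second E-type cyclin, had the largest rise of the 8 genes in A2780. At 6 h it was at 44.8, 49.4 and 45.5 CPM untreated and 99.6, 110.5 and 118 CPM treated (log2 FC 1.23, SE 0.11, adjusted p = 9.98e-09). At 12 h it was at 24.8, 26.4 and 22.04 CPM untreated and 101, 87.9 and 92.6 CPM treated (log2 FC 1.94, SE 0.11, interval 1.71 to 2.18, adjusted p = 3.35e-13). The treated mean at 12 h, 93.9 ± 6.69 CPM, was not above that of 6 h, 109 ± 9.14 CPM, and the larger fold went with an untreated level that had fallen from 46.5 ± 2.48 to 24.4 ± 2.21 CPM. In A2780cis CCNE2 was at 99.3, 97.0 and 112 CPM untreated and 143, 142 and 131 CPM treated at 6 h (log2 FC 0.43, SE 0.11, adjusted p = 0.00356). At 12 h it was at 76.2, 62.4 and 59.9 CPM untreated and 129.9, 108 and 95.6 CPM treated (log2 FC 0.75, SE 0.11, adjusted p = 1.55e-06), again without overlap. Untreated A2780cis stood at 103 ± 8.17 CPM beside 109 ± 9.14 CPM in treated A2780 at 6 h, with overlap, and at 66.2 ± 8.81 beside 93.9 ± 6.69 CPM at 12 h, without overlap.

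CDK2, the kinase of cyclin E, rose in each treated group with narrow spread. In A2780 it was at 70.1, 70.8 and 65.7 CPM untreated and 108, 123.5 and 120.4 CPM treated at 6 h (log2 FC 0.77, SE 0.07, adjusted p = 1.87e-08), and at 73.4, 72.8 and 74.4 CPM untreated and 152, 150.2 and 140.2 CPM treated at 12 h (log2 FC 1.00, SE 0.07, adjusted p = 1.31e-11). In A2780cis it was at 77.1, 84.0 and 83.2 CPM untreated and 111, 109 and 111 CPM treated at 6 h (log2 FC 0.44, SE 0.07, adjusted p = 4.71e-05), and at 83.2, 83.0 and 82.3 CPM untreated and 144, 132 and 141 CPM treated at 12 h (log2 FC 0.75, SE 0.07, adjusted p = 1.86e-09). No treated library overlapped an untreated one in any of the 4 comparisons.

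Counted over the set, 4 of the 8 genes rose and 1 fell in A2780 at 6 h, where 16% of all tested genes rose and 13.4% fell. At 12 h in A2780, 4 rose and 3 fell, against 28.6% and 26.1% of all tested genes. In A2780cis, where CDK6 could not be compared, 2 of 7 genes rose and 2 fell at 6 h, against 14.4% and 16.3% of all genes. At 12 h 3 of 7 rose and 2 fell, against 31.0% and 28.9%. A larger share of all genes was called at 12 h than at 6 h in both lines, so a call at 12 h sets a gene apart less. With any 1 of the 6 libraries of A2780 at 12 h left out, 5 or 6 of the 8 genes passed there instead of 7. Without untreated A2780cis library 2 or 3 or treated library 3, 3 of the 7 genes passed at 12 h in that line. These counts depend on the scaling: with library size as the only correction, the all-gene median in A2780 at 12 h was 0.24 instead of 0.02 on the log2 scale, in A2780cis at 12 h it was 0.14 instead of 0.04, and in A2780 70.7% instead of 52.3% of the called genes were then higher. In A2780cis at 6 h the higher ones then made up 61.4% instead of 47.0%.

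**Figure D2:**
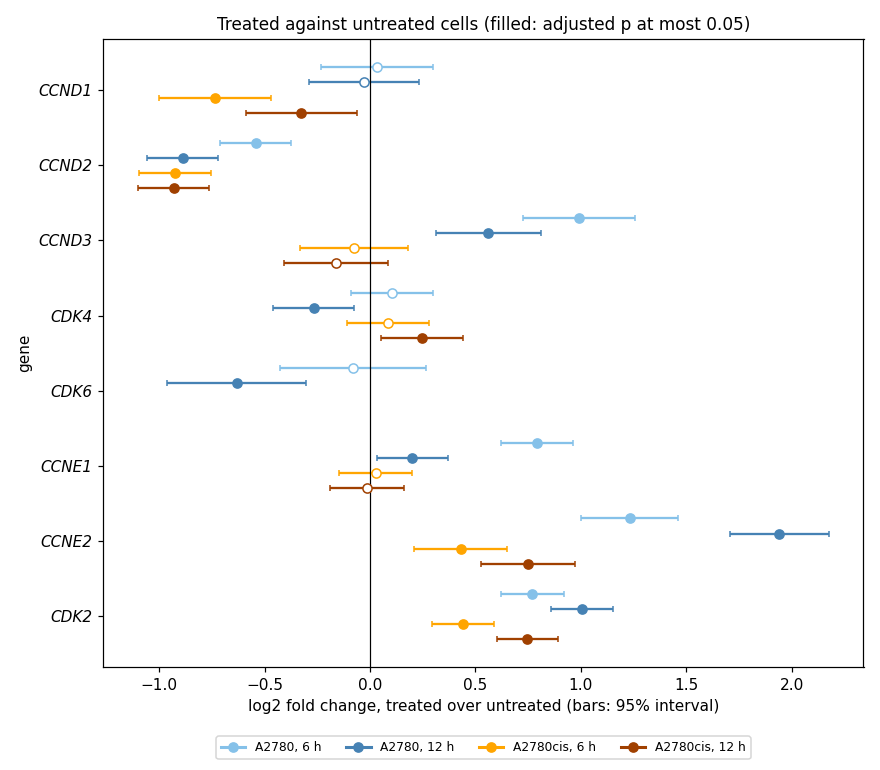
Log2 fold change of treated over untreated cells (x axis) for the 8 genes (y axis) in 4 comparisons, with 95% intervals as bars and filled points for an adjusted p of at most 0.05. CCND2 lay between -0.93 and -0.54, CCNE2 between 0.43 and 1.94 and CDK2 between 0.44 and 1.00, and CDK6 is drawn for A2780 alone because A2780cis was at the floor.

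Whether the lines responded differently was tested by the difference of their log2 FC (A2780cis minus A2780). At 6 h 4 of 7 genes passed, each with the lower value in A2780cis, against 3.07% of all tested genes. CCND3 differed by -1.07 (SE 0.18, interval -1.44 to -0.70, adjusted p = 0.00107), CCNE2 by -0.80 (SE 0.15, interval -1.12 to -0.49, adjusted p = 0.00314) and CCNE1 by -0.77 (SE 0.12, interval -1.01 to -0.52, adjusted p = 0.000561). CCND1 differed by -0.77 (SE 0.18, adjusted p = 0.0161), a call that was lost without untreated A2780 library 1, untreated A2780cis library 2 or treated A2780cis library 2 (adjusted p from 0.0571 to 0.0639). Without untreated A2780cis library 2 the difference of CCND1 was -0.56. CCND2 and CDK2, with differences of -0.38 (interval -0.62 to -0.14, adjusted p = 0.0706) and -0.33 (interval -0.54 to -0.12, adjusted p = 0.0804), missed the threshold over all genes although their own intervals lay below 0. The Wald test of DESeq2 called both (adjusted p = 0.00800 and 0.0286) and so 6 of the 7 genes. CDK4 differed by -0.02 (interval -0.29 to 0.26).

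At 12 h 3 of 7 genes passed this test, against 23.7% of all tested genes. CCNE2 differed by -1.19 (SE 0.16, interval -1.51 to -0.87, adjusted p = 5.82e-06) and CCND3 by -0.72 (SE 0.17, interval -1.07 to -0.37, adjusted p = 0.00351), again lower in A2780cis. CDK4 differed by 0.51 in the other direction (SE 0.13, interval 0.24 to 0.79, adjusted p = 0.00683), and this call held with each of the 12 libraries left out. CCNE1, which differed at 6 h, had a difference of -0.21 at 12 h (interval -0.46 to 0.03, adjusted p = 0.198), and CCND2 of -0.04 (interval -0.28 to 0.19).

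The change of the response from 6 h to 12 h was tested in the same way. In A2780 4 of 8 genes passed, against 23.7% of all tested genes. The response of CCNE1 was smaller at 12 h by 0.59 on the log2 scale (difference -0.59, SE 0.12, adjusted p = 0.000752) and that of CCNE2 larger by 0.71 (SE 0.16, adjusted p = 0.00200), so the responses of the E-type cyclins changed in opposite directions. CCND2 (-0.35, SE 0.12, adjusted p = 0.0312) and CDK4 (-0.37, SE 0.13, adjusted p = 0.0449) were also called, but 7 and 8 of the 12 fits with a library left out lost these calls, with adjusted p-values from 0.0511 to 0.102 and from 0.0547 to 0.126. In A2780cis 1 of 7 genes passed, against 24% of all genes. That gene was CDK2, with a difference of 0.31 (SE 0.10, adjusted p = 0.0294), and 9 of 12 such fits lost the call (adjusted p from 0.0557 to 0.152).

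**Figure D3:**
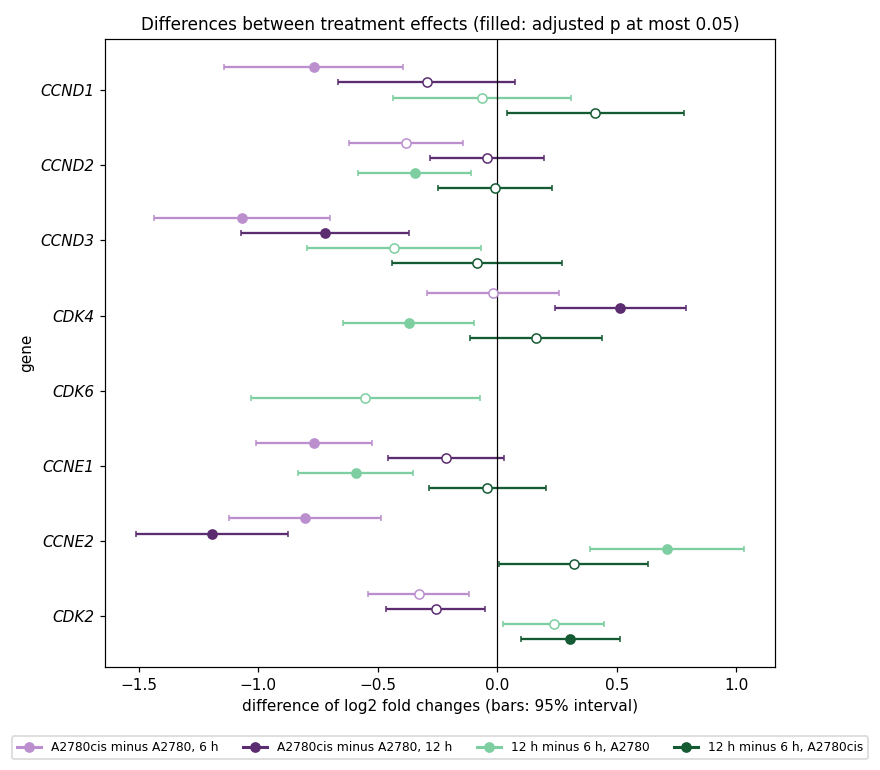
Differences between the treatment effects of the 8 genes (y axis) on the log2 scale (x axis), between the lines at each time in purple and between the times in each line in green, with 95% intervals as bars and filled points for an adjusted p of at most 0.05. CCND3 and CCNE2 lay below 0 in both comparisons between the lines, at -1.07 and -0.72 and at -0.80 and -1.19, and CCNE1 and CCNE2 lay on opposite sides of 0 between the times in A2780, at -0.59 and 0.71.

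The untreated lines were compared in the same way. At 6 h, 4 of 8 genes were higher in A2780cis and 4 lower, where 25.0% of all tested genes were higher and 22.9% lower. Higher were CCNE2 (log2 difference A2780cis minus A2780 1.144, SE 0.11), CCND3 (0.72, SE 0.13), CCND1 (0.64, SE 0.13) and CDK2 (0.24, SE 0.07). The call of CDK2 was lost with library size alone, with no filter on low counts and with the compared groups alone (adjusted p = 0.0580, 0.152 and 0.228). Lower were CDK4 (-0.63, SE 0.10), CCND2 (-0.43, SE 0.08), CCNE1 (-0.32, SE 0.08) and CDK6, with 1 count against 242 over 3 libraries each (ratio of A2780 to A2780cis 225, exact 95% interval 40.0 to 8930). At 12 h 3 were higher and 4 lower, against 25.4% and 27.5% of all genes. CCNE2 (1.44, SE 0.11), CCND3 (0.56, SE 0.12), CCND2 (-0.89, SE 0.08), CCNE1 (-0.84, SE 0.08) and CDK4 (-0.73, SE 0.09) kept their directions and calls, and CDK6 had 4 counts against 402 (ratio 111, interval 42.9 to 408). CDK2 (0.17, SE 0.07, adjusted p = 0.0472) lost its call without any 1 of the 6 libraries (adjusted p from 0.0731 to 0.115), and CCND1 was 0.25 higher on the log2 scale without passing (interval -0.01 to 0.51, adjusted p = 0.0970).

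The untreated cells also changed between the 2 harvests, and this moves the reference of each treatment comparison. In A2780 2 of 8 genes passed, against 26.9% of all tested genes. CCNE2 fell by 0.93 on the log2 scale from 6 h to 12 h (SE 0.12, adjusted p = 5.27e-05). CCND3 rose by 0.54 (SE 0.13, adjusted p = 0.00423), a call lost without library 1 of 6 h (adjusted p = 0.0543). In A2780cis 4 of 7 passed, against 39.9% of all genes. CCNE2 fell by 0.64 (SE 0.11), CCNE1 by 0.58 (SE 0.09) and CCND2 by 0.44 (SE 0.08), and CCND3 rose by 0.38 (SE 0.12, adjusted p = 0.0164), a call lost without library 1 of 6 h or library 2 or 3 of 12 h (adjusted p from 0.0581 to 0.0804). CCNE1 of A2780 was at 74.8 ± 3.96 and 71.1 ± 2.45 CPM at the 2 times and did not pass.

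Ratios within a library do not depend on how libraries are scaled. With 3 libraries against 3 the exact permutation test cannot give a p under 0.1, so for the 14 ratio comparisons the values and the overlap are given, and each non-overlapping comparison below has p = 0.1, two-sided, and an adjusted p of 0.127. Per base of exon, CCNE1 exceeded CCNE2 in A2780, with a mean log2 ratio of CCNE2 over CCNE1 of -1.52 ± 0.04 at 6 h and -2.38 ± 0.18 at 12 h without drug. Treatment shifted it to -1.09 ± 0.16 and -0.64 ± 0.10, a difference of 0.44 and 1.74. In untreated A2780cis the 2 transcripts were about equal, at -0.05 ± 0.16 and -0.11 ± 0.17, and treatment shifted the ratio to 0.35 ± 0.13 and 0.65 ± 0.25, so that CCNE2 exceeded CCNE1 in each treated A2780cis library. Treated and untreated libraries did not overlap in any of the 4 comparisons.

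In group means, the make-up of the D-type cyclins changed in the same direction in both lines. In shares of the summed RPKM of the 3 genes, CCND2 held 81.6% ± 1.72 in untreated and 73.2% ± 1.34 in treated A2780 at 6 h, and 78.0% ± 1.59 and 64.9% ± 1.17 at 12 h. In A2780cis it held 68.0% ± 3.58 and 63.6% ± 2.25 at 6 h and 61.1% ± 2.66 and 50.4% ± 2.34 at 12 h. At 6 h in A2780cis the shares of CCND2 and of CCND1 overlapped between treated and untreated libraries. The share of CCND1 was highest, at 42.3% ± 3.41, in treated A2780cis at 12 h, although CCND1 itself did not rise in any comparison with untreated cells. The log2 ratio of CCND1 over CCND2 was higher in treated cells by 0.58 and 0.86 in A2780 and by 0.60 in A2780cis at 12 h without overlap, and by 0.21 in A2780cis at 6 h with overlap (p = 0.4, exact permutation test). CCND3 over CCND1 was higher by 0.96 and 0.59 in A2780 and by 0.62 in A2780cis at 6 h without overlap, and by 0.17 with overlap in A2780cis at 12 h (p = 0.5, exact permutation test). CDK6 over CDK4, taken in A2780 alone, differed by -0.19 at 6 h with overlap (p = 0.3, exact permutation test) and by -0.38 at 12 h without.

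**Figure D4:**
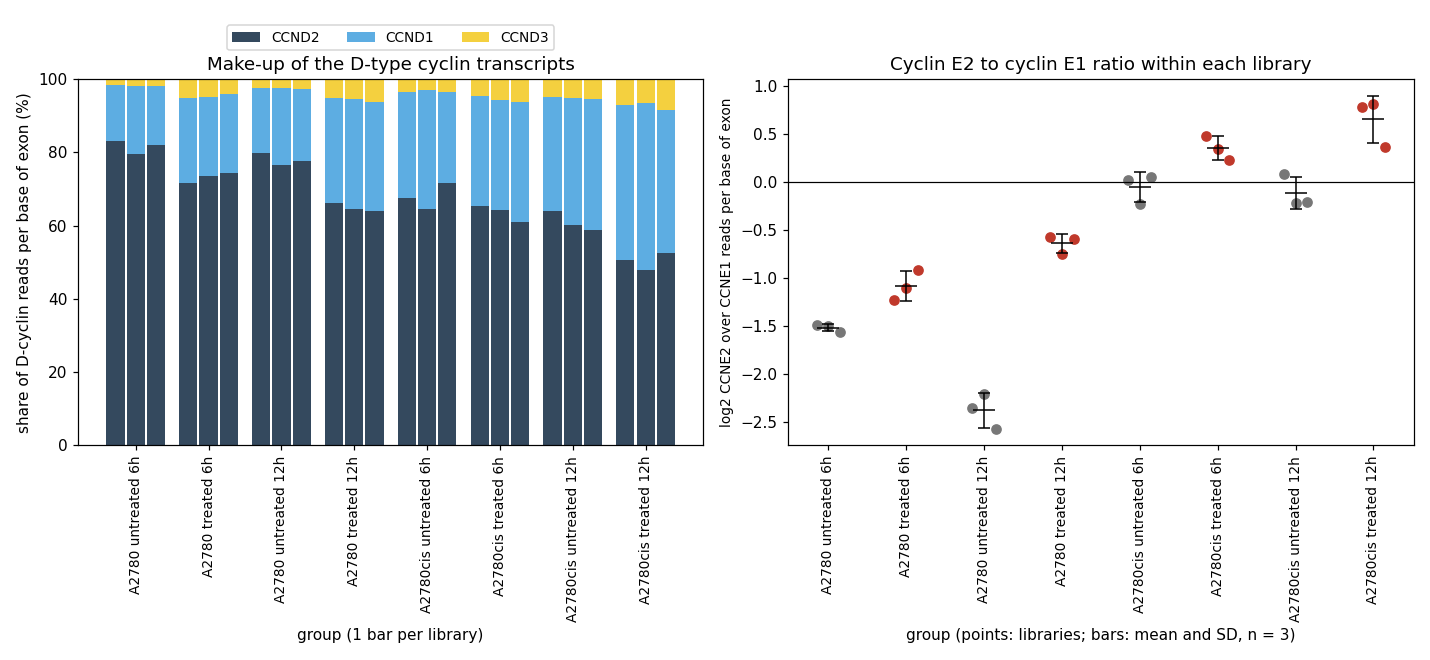
Left, share of each D-type cyclin in their summed reads per base of exon (y axis, percent) with 1 bar per library, in groups along the x axis. Right, log2 ratio of CCNE2 to CCNE1 per base of exon (y axis) in each library, with the mean and SD of 3 libraries. The CCND2 share is highest in untreated A2780 at 6 h (81.6%) and lowest in treated A2780cis at 12 h (50.4%), and the E-type ratio is negative in all A2780 libraries and positive in all treated A2780cis libraries.

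The genes around this switch were counted in lists drawn up by function. The share of all tested genes that rose and fell (16% and 13.4% in A2780 at 6 h, 28.6% and 26.1% at 12 h, 14.4% and 16.3% in A2780cis at 6 h, 31.0% and 28.9% at 12 h) gives the number of calls that a list of the same size would hold at that share. Of 7 inhibitors of cyclin-dependent kinases, 2 rose and none fell in A2780 at 6 h, 5 rose and none fell at 12 h, and in A2780cis 1 and 4 rose and none fell. The all-gene shares would give 1.1, 2.0, 1.0 and 2.2 rises, so the 2 counts of 6 h were near them, and 0.9, 1.8, 1.1 and 2.0 falls. Their median log2 FC was 0.55 and 0.65 in A2780 and 0.46 and 1.25 in A2780cis, beside medians between 0.00 and 0.04 for all genes. CDKN1A, which encodes the inhibitor p21 of CDK2 complexes, rose in every comparison, with log2 FC of 2.62 at 6 h and 2.89 at 12 h in A2780, and of 2.86 and 4.12 in A2780cis. Its response at 12 h was larger in A2780cis by 1.24 (SE 0.15, adjusted p = 1.84e-06), opposite to CCNE2. The level of CDKN1A was nevertheless lower in A2780cis. At 12 h it was 12.86 ± 0.8225 CPM untreated and 224.6 ± 12.1 CPM treated there, beside 44.61 ± 1.37 and 330.3 ± 7.98 CPM in A2780.

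Of 13 pocket proteins, E2F and DP factors, 4 rose and 4 fell in A2780 at 6 h, 5 and 5 at 12 h, and 3 rose in A2780cis at each time, where 6 and 9 fell. At the all-gene shares a list of 13 would hold 2.1 rises and 1.7 falls, 3.7 and 3.4, 1.9 and 2.1, and 4.0 and 3.8, so the count of rises at 12 h was near the background in A2780 and below it in A2780cis. E2F7 and E2F8, repressors of the family, rose in all 4 comparisons, with log2 FC of 1.44 and 1.88 for E2F7 in A2780 and 0.62 and 1.00 in A2780cis. The response of E2F7 was lower in A2780cis by 0.82 at 6 h and 0.88 at 12 h (differences -0.82 and -0.88, adjusted p = 0.00178 and 0.000108), the same direction as for CCNE2. RBL1, which encodes the pocket protein p107, fell at 12 h, with log2 FC of -0.69 (A2780) and -1.34 (A2780cis). E2F4, the E2F factor that works mainly with pocket proteins as a repressor, fell at 12 h with -0.91 and -0.67 and did not pass at 6 h.

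Of 8 genes for the phosphorylation and dephosphorylation of the kinases, 1 rose and 4 fell in A2780 at 6 h and none rose and 5 fell at 12 h, and in A2780cis none rose and 6 fell at each time. These falls compare with 1.1, 2.1, 1.3 and 2.3 at the all-gene shares, and the rises with 1.3, 2.3, 1.2 and 2.5. CDK7 and MNAT1, parts of the kinase that activates cyclin-dependent kinases, fell in both lines at 12 h, with log2 FC of -1.05 and -0.81 in A2780 and -1.24 and -0.51 in A2780cis. Of 19 genes for the turnover of cyclins D and E, 3 rose and 3 fell in A2780 at 6 h and 4 and 9 at 12 h, and in A2780cis 1 and 7 at 6 h and 6 and 11 at 12 h. For 19 genes the shares of all genes amount to 3.0 and 2.5, 5.4 and 5.0, 2.7 and 3.1, and 5.9 and 5.5, so the counts of A2780 at 6 h and the rises of A2780cis at 12 h were near the background. FBXW7, whose product marks cyclin E for degradation, rose in all 4 comparisons, at 12 h with a log2 FC of 1.85 (A2780) and 1.25 (A2780cis). The cullins CUL1 and CUL4A, scaffolds of ubiquitin ligases, fell at 12 h with -0.96 and -0.78 in A2780 and -1.32 and -0.93 in A2780cis.

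Of 7 tested genes among 8 for the S, G2 and M cyclins, CDK1 and CDK3, 4 and 5 fell in A2780 at 6 h and 12 h and 5 and 6 in A2780cis, whereas 1 rose at 6 h and none at 12 h in each line. The corresponding numbers at the all-gene shares are 0.9 and 1.8 falls in A2780 and 1.1 and 2.0 in A2780cis, and 1.1, 2.0, 1.0 and 2.2 rises. CCNB1, the mitotic cyclin B1, fell at 12 h, with log2 FC of -1.46 (A2780) and -2.12 (A2780cis), and CCNB2 with -1.18 and -1.56. Of 24 tested genes among 25 other cyclins and kinases, 4 rose and 4 fell at 6 h and 8 and 7 at 12 h in A2780, and 4 and 7 at 6 h and 5 and 11 at 12 h in A2780cis. With 3.8 and 3.2, 6.9 and 6.3, 3.5 and 3.9, and 7.4 and 6.9 at the all-gene shares, both counts of A2780 at each time were near the background. CCNG2 rose by 0.82 and 1.45 at 12 h and CCNL2 by 0.33 and 0.44, and CDK12, a kinase of RNA polymerase II, fell with -1.43 and -2.03 and CCNY with -1.005 and -1.10.

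Of 24 genes known to respond to E2F factors at the start of S phase, 10 rose and 4 fell in A2780 at 6 h, with a median log2 FC of 0.19, and 6 rose and 13 fell at 12 h, with a median of -0.35. In A2780cis 3 rose and 7 fell at 6 h and 4 rose and 15 fell at 12 h, with medians of -0.06 and -0.53. A list of 24 would hold 3.8 and 3.2, 6.9 and 6.3, 3.5 and 3.9, and 7.4 and 6.9 at the shares of all genes, so the falls of A2780 at 6 h and its rises at 12 h, and the rises of A2780cis at 6 h, were near the background. The 2 E-type cyclins, themselves targets of E2F factors, were not in this list. PCNA, the sliding clamp of DNA replication, rose by 1.34 and 0.85 at 12 h in A2780 and A2780cis and TK1, thymidine kinase, by 0.69 and 0.51. CHAF1A, a chromatin assembly factor, fell with -1.13 and -1.12 and UHRF1, a factor for the upkeep of DNA methylation, with -1.08 and -1.26. Between the untreated lines, 3 of these 24 genes were higher and 4 lower in A2780cis at 6 h, and 4 and 4 at 12 h. The shares of all genes, 25.0% and 22.9% at 6 h and 25.4% and 27.5% at 12 h, would give 6.0 and 5.5, and 6.1 and 6.6.

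Some of the 8 genes share exon bases with a gene on the other strand, and the strand setting of the counting was not given in the sources used here, so shared reads could count for both. CDK4 shares 1369 bases with TSPAN31, which had 774 to 3253 counts per library beside 1780 to 6962 of CDK4. TSPAN31 had log2 FC of 0.01 and -0.24 in A2780 and 0.10 and 0.32 in A2780cis, near those of CDK4, so the small changes of CDK4 cannot be assigned to one of these genes. TSPAN31 was also lower in untreated A2780cis (-0.78 at 6 h and -0.89 at 12 h) and its response at 12 h differed between the lines by 0.56, so the line results of CDK4 cannot be assigned either. CCNE2 shares 1629 bases with INTS8 (1114 to 3794 counts), which did not rise in any of the comparisons with untreated cells, with log2 FC of 0.23, 0.01, -0.12 and -0.39. INTS8 was however higher in untreated A2780cis than in A2780, by 0.97 at 6 h and 0.78 at 12 h, as CCNE2 was. The log2 FC of INTS8 was also lower in A2780cis than in A2780 at both times, as that of CCNE2 was. The part of shared reads in the line results of CCNE2 and in its ratio to CCNE1 was not tested. CCND1 shares 497 bases with LTO1 (at least 277 counts), which fell by 0.36 in A2780cis at 6 h. CDK2 shares 565 bases with ENSG00000258554 (42 to 282 counts) and 89 with PMEL (34 to 257 counts), beside 722 to 3074 counts of CDK2. ENSG00000258554 rose with CDK2 in all 4 comparisons, with log2 FC from 0.53 to 0.80, and PMEL in A2780 at both times and in A2780cis at 12 h (0.80, 1.53 and 1.16), and the part of shared reads in this was not tested. The antisense genes CCND2-AS1 and CDK6-AS1 had at most 7 and 2 counts, and 4 pseudogenes of CCND2, CCND3 and CDK4 at most 1.

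The genes whose log2 CPM ran most closely with each of the 8 over the 24 libraries were looked for among 13084 genes whose log2 CPM averaged 2 or more. Line, treatment and time are shared by all libraries of a group, so these values of Pearson's r are descriptions. CCND2 ran with HMGA2 (r = 0.982) and GREB1L (0.980), CCNE2 with AKAP5 (0.963) and FAM111B (0.957), CDK2 with ENSG00000260912 (0.984) and GINS4 (0.976), and CCNE1 with MACROH2A1 (0.940) and LSM11 (0.927). CDK4 ran with TSPAN31 (0.989), its neighbour with shared exons, and H1-2 (0.957), CDK6 with COL6A3 and OTOAP1 (0.995 each), CCND3 with CDCA5 (0.940) and TRIM8 (0.937), and CCND1 less closely with ZMIZ1 (0.859) and ZFHX3-AS1 (0.854). Among the 8 genes themselves, CCND2 ran opposite to CDK2 (r = -0.738) and CCNE2 (-0.708), CDK4 ran with CDK6 (0.892), and the 2 E-type cyclins were hardly related (-0.035). CDK6 was at or under the floor in every A2780cis library, and the part of this in its values of r was not tested.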

How the data were processed

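RNA of 24 libraries (A2780 and A2780cis, untreated or treated, 6 h or 12 h, 3 each) was prepared with a stranded total RNA kit. The labels describe single reads and the study's methods paired-end reads. The authors deposited estimated counts per gene that are not normalized: per the labels and methods, reads were trimmed with Trimmomatic, aligned with STAR 2.5.2b to GRCh38.p7 and counted on exons with featureCounts, with fractions for reads of several alignments and with reads over several genes allowed, which can raise both of 2 overlapping genes. The strand setting is not given in the sources used here. Some fractional counts follow, among the 8 genes in 13 libraries for CCND2 at most.

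Counts were rounded and fitted in R 4.3.3 with edgeR 4.0.16 (filterByExpr with a minimum count of 10 and a minimum total of 15, TMM, quasi-likelihood model with 1 coefficient per group, 16 residual degrees of freedom) over 20240 genes, and p-values were adjusted by Benjamini-Hochberg over all of them, with a threshold of 0.05. An SE was taken as |log2 FC| over the root of the F statistic. For genes at or under 3 counts in every library of a group, no fitted fold change is printed. Between the untreated lines, CDK6 was still counted as lower by its fitted test, and a ratio of summed counts is given for it. RPKM and overlaps used the exons of GENCODE release 44, which holds a newer version of each of the 8 genes than the count table. The members, the gene lists and the tests were chosen with earlier results of these data known. In each list, up to 2 genes per direction were named: those past the threshold in both lines in 1 direction at 12 h, without overlap of the groups, averaging a log2 CPM of 2 or more, with the largest change in the line where it was smaller. Genes alike in pattern were the 2 with the highest r for each member. On simulated data of the comparison of A2780 at 12 h, over 19668 genes, 99 of 100 genes changed 2-fold and 100 of 100 changed 4-fold were called, and 12 of 19468 unchanged genes. The simulation gave every gene the same small dispersion and changed only genes with higher counts. Few genes were changed in it, unlike in the data, so these rates need not hold for the data. Alternatives were size factors and the Wald test of DESeq2 1.42.0, library size alone, no filter, counts not rounded, a replicate block, the compared groups alone, removal of lncRNA and rRNA genes, and each compared library left out. Tables and figures were made with Python 3.11.15, pandas 2.3.3, SciPy 1.17.1 and matplotlib 3.10.9.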

Additional observations from a re-analysis of the deposited data

Results flagged for a closer look

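The following responses differed between the lines or between the times by a test of the difference itself (edgeR's quasi-likelihood test of the difference of log2 FC, Benjamini-Hochberg adjustment over all genes). Between the lines (A2780cis minus A2780) at 6 h, the response differed for CCND3 by -1.07, for CCNE2 by -0.80, and for CCND1 and CCNE1 by -0.77 each. At 12 h it differed for CCNE2 by -1.19, for CCND3 by -0.72 and for CDK4 by 0.51. Between the times (12 h minus 6 h) in A2780, it differed for CCNE2 by 0.71, for CCNE1 by -0.59, for CDK4 by -0.37 and for CCND2 by -0.35. In A2780cis it differed for CDK2 by 0.31. Not all of these calls held: over 21 fits, CCND1 between the lines at 6 h passed in 17. Between the times, CCND2 and CDK4 in A2780 passed in 10 and 9 of 21, and CDK2 in A2780cis in 10. The differences of CDK4 cannot be assigned to CDK4 or TSPAN31, which share exon bases. The untreated level of CCNE2 moved with time in both lines and with the line at both times, and its part in these differences was not tested.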

How the results depend on the processing

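The calls of CCND2, CCNE2 and CDK2 in the 4 treatment comparisons, and those of CCND3, CCNE1 at 6 h and CDK6 at 12 h in A2780, held under every alternative run. Scaling by library size alone gave log2 FC of 0.1915 for CCND1 in A2780 at 12 h, 0.0238 for CCND3 in A2780cis at 6 h and 0.0874 for CCNE1 in A2780cis at 12 h, all opposite in sign to small changes that did not pass. It gave 0.0116 for the line difference of CDK4 at 6 h, 0.0895 and 0.0036 for the time differences of CCND1 in A2780 and CCND2 in A2780cis, and 0.0002 and 0.1003 for the untreated change of CCNE1 in A2780 and CCND1 in A2780cis, again reversed. It called 5 genes for the line difference at 12 h and 4 for untreated A2780 over time, and moved the share of higher calls from 41.0% to 27.0% (line difference at 12 h), 45.1% to 69.7% (time difference in A2780), 61.7% to 71.9% (untreated A2780) and 45.2% to 74.6% (untreated A2780cis). DESeq2 size factors reversed CCND1 in A2780 at 6 h (-0.0063), CDK4 in the line difference at 6 h (0.0035), CCND2 in the time difference of A2780cis (0.0015) and CCND2 in untreated A2780 (-0.0186), and called 2 genes for the time difference in A2780. The Wald test reversed CCND1 in A2780 at 6 h (-0.0044), CDK4 in the line difference at 6 h (0.0) and CCND2 in untreated A2780 (-0.0134). Without lncRNA and rRNA genes, CCNE1 in A2780cis at 12 h was 0.0453, CDK4 in the line difference at 6 h 0.0303, and CCND2 and CCNE1 in the time difference of A2780cis 0.0351 and 0.0013. With the compared groups alone, CDK4 in the line difference at 6 h was 0.0402, CCND2 at 12 h 0.0139 and CCND1 in untreated A2780cis 0.015, and no gene (0) was called for the time difference in A2780cis. With no filter the time differences called 2 genes in A2780 and 0 in A2780cis. The causes were not tested.

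With a library left out, the number of genes of the set past the threshold at 12 h ran from 5 to 6 in A2780 and 3 to 5 in A2780cis. It ran from 2 to 5 and 0 to 2 for the time differences in A2780 and A2780cis, and 1 to 3 for untreated A2780 over time. Signs changed for CCND1 in A2780 at 6 h (-0.0164 to 0.0981) and 12 h (-0.1211 to 0.0166), CCND3 (-0.1802 to 0.01) and CCNE1 (-0.0322 to 0.0746) in A2780cis at 6 h, CCNE1 in A2780cis at 12 h (-0.0989 to 0.0709), the line differences of CDK4 at 6 h (-0.0865 to 0.0424) and CCND2 at 12 h (-0.0855 to 0.0234), and the time differences in A2780cis of CCND2 (-0.1099 to 0.0425), CCND3 (-0.206 to 0.0119) and CCNE1 (-0.1661 to 0.0444). They also changed for CCND2 in untreated A2780 (-0.0191 to 0.0556) and for CCND1 (-0.2053 to 0.145), CDK4 (-0.046 to 0.083) and CDK2 (-0.0126 to 0.0478) in untreated A2780cis. Counts over all genes ran from 3805 to 5987 in A2780 at 6 h, 357 to 642 for the line difference at 6 h, 1846 to 5697 in untreated A2780 and 4985 to 8421 in untreated A2780cis.

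The labels do not say what same-numbered libraries share beyond the number. Correlations of their deviations ran from -0.254 to 0.312, and so few values per comparison cannot show whether they share a batch. A replicate block changed the counts of the set to 6 for the untreated lines at 12 h (CDK2, adjusted p = 0.0503) and 3 for untreated A2780 over time (CCND1, adjusted p = 0.0449), and no other count. In all, 1292 values of single genes kept direction and side of the threshold, 75 lost and 23 gained a call, and 44 changed sign. CDK6, with at most 149 counts, and CCND3, from 196 counts, were the least deeply counted.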
